A study of Homo sapiens with 6 samples.

Results

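Oxidative phosphorylation is the pathway by which mitochondria pass electrons from nutrients to oxygen and use the resulting proton gradient to make ATP. Its genes were chosen by symbol: NDUFA, NDUFB, NDUFC, NDUFS and NDUFV names (complex I, with the NDUFAF assembly factors), SDHA to SDHD (complex II), UQCR names and CYC1 (complex III), CYCS (cytochrome c), COX4 to COX8 names (complex IV), ATP5 names (complex V) and the 13 protein-coding genes of the mitochondrial genome. The rule gave 113 of 19871 gene symbols, 100 of them encoded in the nucleus and 13 in mitochondrial DNA, from 430 of 92866 listed mRNA transcripts. The rule itself uses no measured value, but it was set with earlier results of these data known.

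RNA was sequenced from HCT116 cells, a human colorectal cancer (CRC) cell line, in 3 groups with 2 libraries each: a negative control (NC), cells overexpressing the long non-coding RNA GAS5 (GAS5), and cells with knockdown of the transcriptional co-activator YAP by siRNA (siYAP). The comparisons ask how the CRC transcriptome differed from NC after overexpression of GAS5 and after knockdown of YAP. Per the labels, a GAS5 plasmid or a YAP-specific siRNA was transfected, although the labels also list all 3 groups under siRNA. The content of NC, which YAP siRNA was used and whether the libraries came from separate cultures are not given in the sources used here. The tables hold estimated counts and FPKM (fragment numbers corrected for transcript length and library size) as the authors' means per group, with no values per library, so no spread between replicates and no test could be had. Every interval below is a 95% Wilson interval on the counts and covers counting error only.

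The group means had count totals of 27206123 in NC, with 25521577 in GAS5 and 26298036 in siYAP. The knocked-down gene, YAP1, had 3480 counts in NC against 2679 in GAS5 and 1444 in siYAP, a log2 fold change of -1.18 in siYAP (interval -1.25 to -1.12) and -0.26 in GAS5. The epithelial genes EPCAM, KRT8, KRT18, CDH1 and CDX2 were expressed in all groups, while the differentiated colon genes VIL1 and CEACAM5 were at 6 counts or fewer and KRT20 at 12 to 17. Of 9 markers of fibroblasts, leukocytes and endothelium, DCN and PTPRC had 0 counts in every group, COL1A1 had 378.5 in NC, with 556 in GAS5 and 540 in siYAP, CD14 had 4.5, 37.5 and 3, PDGFRB had 17, 7.5 and 11, and the other 4 had at most 6. Their part in the results was not tested. In bulk RNA, fewer cells of a type and less RNA per cell cannot be told apart.

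Complexes I, III, IV and V are built from subunits of both genomes, and complex II from nuclear genes alone. The mitochondrial genes encode the hydrophobic core subunits and are transcribed inside the organelle, from both strands of the circular genome, as long precursor RNAs that are then cut into individual transcripts. The nuclear genes are transcribed separately, and their proteins are imported. Mitochondrial-encoded and nuclear-encoded subunits of a complex therefore reach the RNA pool by separate routes.

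The mitochondrial protein genes lie at chrM:3307-15887 (GRCh38, GENCODE 29), between MT-ND1 and MT-CYB. All are on the plus strand except MT-ND6, at chrM:14149-14673 on the minus strand. Up to 392 bases lie between neighbouring protein genes, and 3 pairs share bases. MT-ATP6 and MT-CO3 share 1 base, and the pairs MT-ATP8 with MT-ATP6 and MT-ND4L with MT-ND4 share more and are known to stay together on a common mature mRNA. The overlaps of the latter pairs are shown because fragments from them cannot be assigned to a gene by position, and because MT-ATP8 and MT-ND4L were among the lowest genes in siYAP. Capitals mark the 46 and 7 bases held by both genes of each pair, on the plus strand of chrM:8515-8584 and chrM:10740-10786.
MT-ATP8 and MT-ATP6: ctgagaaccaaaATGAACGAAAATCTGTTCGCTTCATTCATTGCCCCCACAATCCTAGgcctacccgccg
MT-ND4L and MT-ND4: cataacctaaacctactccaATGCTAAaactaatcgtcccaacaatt

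Levels were compared by FPKM, which corrects for transcript length. Genes on a shared mRNA still differed in FPKM. In NC the FPKM ratio was 0.149 for MT-ATP8 to MT-ATP6 and 0.192 for MT-ND4L to MT-ND4. The FPKM ranks of the shortest genes are therefore uncertain. In NC, the median of the mitochondrial genes was 1830 FPKM and that of the 90 nuclear genes that passed the low-count filter was 47.9 FPKM, a ratio of 38.3. MT-CO1, the catalytic subunit of complex IV, was the highest at 8498 FPKM, and MT-ND6, a complex I subunit, was the lowest mitochondrial gene at 235 FPKM. ATP5B, the catalytic beta subunit of ATP synthase, was the highest nuclear gene at 566 FPKM, and 6 nuclear genes lay above MT-ND6. The highest nuclear gene was NDUFA11 in complex I (151 FPKM), SDHA in complex II (103 FPKM), CYC1 in complex III (227 FPKM) and COX6A1 in complex IV (387 FPKM), while CYCS, the mobile electron carrier cytochrome c, had 67.1 FPKM.

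**Figure D1:**
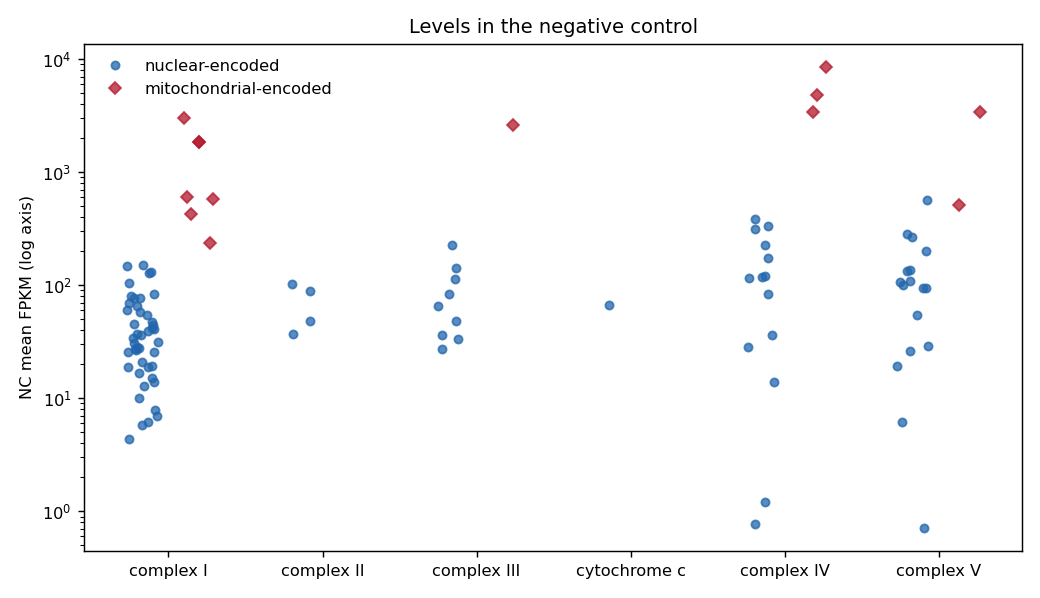
NC mean FPKM (log axis) of each oxidative phosphorylation gene that passed the low-count filter, by complex, with nuclear-encoded genes as circles and mitochondrial-encoded genes as diamonds. Mitochondrial-encoded genes run from 235 to 8498 FPKM and the highest nuclear-encoded gene is at 566 FPKM.

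The mitochondrial genes took 3.42% of all counts in NC against 3.21% in GAS5 and 2.54% in siYAP (intervals 3.417% to 3.426%, 3.206% to 3.216% and 2.538% to 2.547%). The nuclear genes took 0.782%, 0.863% and 0.791%. Scaled by TMM (a trimmed mean of M-values, which aligns the bulk of genes between groups), the summed mitochondrial counts differed from NC by -23.8% in siYAP and -4.45% in GAS5, and the summed nuclear counts by 3.68% and 12.3%. MT-CO1 alone held 38.5% of the mitochondrial counts in NC, and without it the sums differed by -26.0% in siYAP and -9.47% in GAS5. So the 2 genomes stood on opposite sides of NC in both comparisons, with the larger gap in siYAP.

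In siYAP, 12 of the 13 mitochondrial genes were below NC (all 13 when scaled by total counts or taken from mean FPKM), where 50% of the 13308 genes that passed the filter were below it. Their median log2 fold change was -0.44 (quartiles -0.58 and -0.33), against a median of 0 over all genes. Of the 13, 3 were lower by 1.5-fold or more, MT-ATP8, MT-ND6 and MT-ND4L, where 5.63% of all genes were. None was lower by 2-fold, where 1.22% of all genes were, and none was higher by 1.5-fold (4.69% of all genes) or 2-fold (1.06%).

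Complex I has 7 mitochondrial-encoded subunits, which form the core of its membrane arm. Below, counts are given in the order NC, GAS5 and siYAP, and pairs of log2 fold changes in the order GAS5 and siYAP. MT-ND4 had 113621 counts in NC against 93524 in GAS5 and 71866 in siYAP, a log2 fold change in siYAP of -0.58 (interval -0.58 to -0.57). MT-ND2 had 52440, 44144 and 34392 counts, for -0.52 in siYAP. MT-ND1 had 48047, 38656 and 33460, and MT-ND5 had 30058, 24572 and 20831, each at -0.44. These 4 genes stood in the same order of groups, with NC highest and siYAP lowest. MT-ND4L had 4695 counts in NC, with 4169 in GAS5 and 2842 in siYAP (-0.64, interval -0.69 to -0.59). MT-ND6, the only subunit encoded on the opposite strand, had 3421, 2680 and 1926 (-0.74, interval -0.80 to -0.69). MT-ND3, with 4060, 3397 and 3915 counts, was the only mitochondrial gene not below NC in siYAP, at 0.03 (interval -0.01 to 0.08), and was at -0.03 when the ratio of mean FPKM was used instead.

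Complex III has 1 mitochondrial-encoded subunit, the cytochrome b gene MT-CYB, with 81892 counts in NC against 68411 in GAS5 and 64422 in siYAP (-0.26 in siYAP). The catalytic core of complex IV is encoded by 3 mitochondrial genes. MT-CO1 had 358458, 342001 and 269693 counts (-0.33 in siYAP), MT-CO2 had 64035, 51701 and 45094 (-0.42) and MT-CO3 had 103576, 92609 and 78610 (-0.31). With MT-CYB and MT-ND3, MT-CO1 and MT-CO3 were the genes nearest to NC in siYAP. In complex V, MT-ATP6, the proton channel subunit, had 63680, 51812 and 40174 counts (-0.58), and MT-ATP8 had 2890, 1787 and 1452 (-0.91, interval -0.97 to -0.84).

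**Figure D2:**
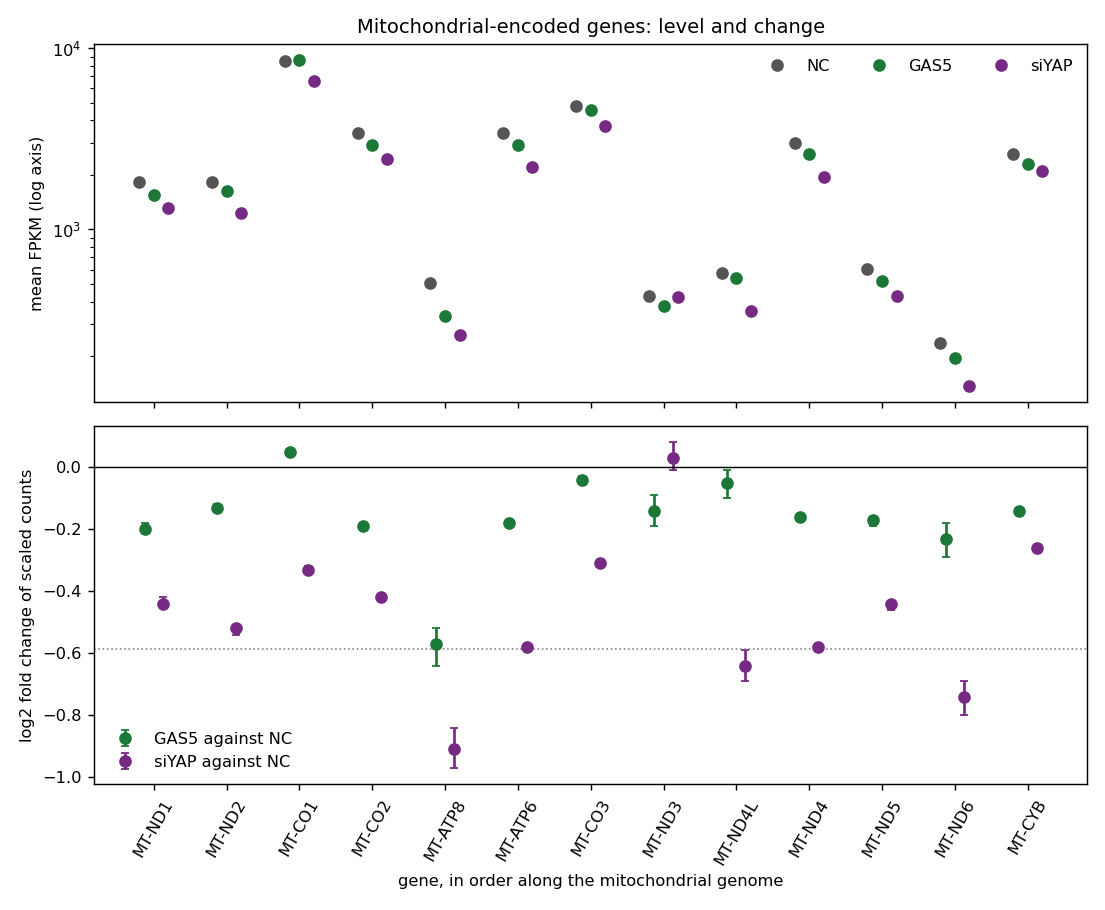
Mitochondrial-encoded genes in the order of the mitochondrial genome: mean FPKM per group on a log axis (top), and log2 fold change of scaled counts against NC with 95% Wilson intervals, which cover counting error only (bottom; the dotted line marks 1.5-fold lower). In siYAP the genes lie between -0.91 and 0.03, and in GAS5 between -0.57 and 0.05.

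In GAS5, 12 of the 13 mitochondrial genes were also below NC, where 49.8% of the 13379 genes that passed the filter were, but their median was -0.16 (quartiles -0.19 and -0.13). MT-CO1, at 0.05 (interval 0.05 to 0.06), was the exception. None reached 1.5-fold in either direction, where 4.81% of all genes were higher and 3.68% lower, nor 2-fold, where 2.2% were higher and 0.889% lower. MT-ATP8 was again the lowest, at -0.57 (interval -0.64 to -0.52), and passed the 1.5-fold limit by total counts (-0.60), mean FPKM (-0.62) or Ensembl transcripts only (-0.59). Apart from it, the 11 genes below NC lay between -0.23 (MT-ND6) and -0.04 (MT-CO3). Both comparisons used the same NC values, so their fold changes are not independent of each other. Set directly against GAS5, without NC, the siYAP values had a median difference of -0.33 over the mitochondrial genes and were lower for 12 of the 13, MT-ND3 being the exception.

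The genes that share an mRNA did not have equal fold changes. The count ratio of MT-ATP8 to MT-ATP6 was 0.0454 in NC, with 0.0345 in GAS5 and 0.0361 in siYAP, and that of MT-ND4L to MT-ND4 was 0.0413, 0.0446 and 0.0395. The MT-ATP8 ratio was thus highest in NC, and the log2 fold change of MT-ATP8 minus that of MT-ATP6 was -0.40 in GAS5 and -0.33 in siYAP, while MT-ND4L minus MT-ND4 was 0.11 and -0.06. MT-ATP8, of 207 bases, and MT-ND4L, of 297 bases, are the shortest of the 13 genes, and how fragments in the shared bases were assigned is not given in the sources used here. The part of that assignment in these ratios was not tested.

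The most abundant genes were compared with each other as a description. Of the 85 genes with at least 30000 NC counts, 9 were mitochondrial, and 19 had a log2 fold change of -0.25 or less in siYAP, all 9 mitochondrial genes among them. In GAS5, 11 of the 85 were at or below -0.25, with 0 mitochondrial genes among them. Both limits lie at the edge of the mitochondrial values, as MT-ND5 had 30058 NC counts and MT-CYB was at -0.26 in siYAP. That all 9 were at or below -0.25 in siYAP therefore follows from these limits and carries no weight. MT-ND3, with 4060 NC counts and 0.03 in siYAP, lay outside them. The 1910 nuclear genes with at least as many NC counts as MT-ATP8 had a median of 0.01 in siYAP, with quartiles of -0.17 and 0.20. The part of abundance in the mitochondrial values was not tested.

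The nuclear genes showed a different pattern. In GAS5, 79 of the 90 that passed the filter were above NC, where 50.2% of all genes were, with a median log2 fold change of 0.18 (quartiles 0.08 and 0.28). In siYAP, 58 of the 90 were above NC, where 50% of all genes were, with a median of 0.06 (quartiles -0.03 and 0.17). The mitochondrial median minus the nuclear median was -0.338 in GAS5 and -0.500 in siYAP, on the log2 scale. Only 2 nuclear genes were 1.5-fold or more higher in GAS5, NDUFAF8 and ATP5G1, and 1 was lower, NDUFA4L2, while in siYAP none was higher and 1 was lower, COX6B2. Over both genomes, the genes past 1.5-fold went from 3 to 7 in GAS5 without the low-count filter or with Ensembl transcripts only, and in siYAP from 4 to 9 and to 7. Of all genes, 4.81% and 3.68% were past those limits in GAS5 and 4.69% and 5.63% in siYAP.

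**Figure D3:**
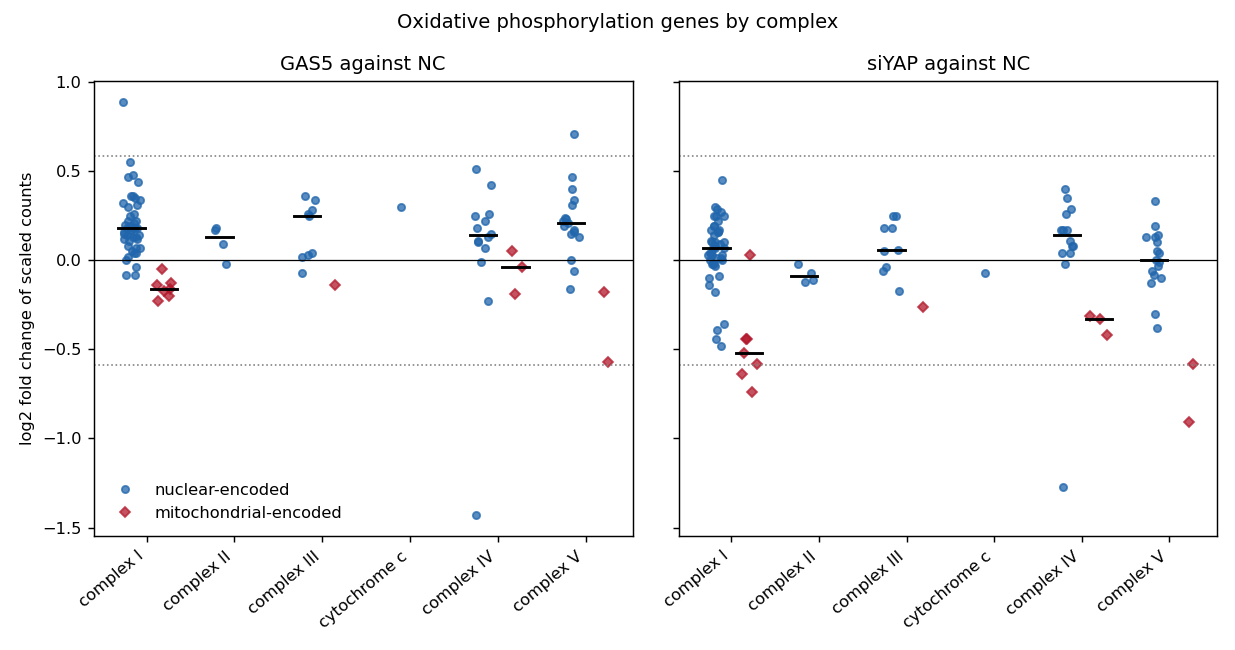
Log2 fold change of scaled counts against NC for each gene that passed the low-count filter, by complex, in GAS5 (left) and siYAP (right). Circles are nuclear-encoded and diamonds mitochondrial-encoded genes, bars are medians of groups of 3 or more genes, dotted lines mark 1.5-fold; in siYAP all mitochondrial-encoded genes but MT-ND3 (below 0 only by total counts or mean FPKM) lie below 0, while the nuclear-encoded medians lie between -0.09 and 0.14.

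Nuclear complex I genes (45 that passed the filter, NDUFAF factors included) had a median of 0.18 in GAS5 and 0.07 in siYAP. The 7 core subunits of the flavin and iron-sulphur arm, which takes electrons from NADH, had medians of 0.18 and 0.04, and the 30 accessory subunits 0.15 and 0.08. Among the core subunits, NDUFS3 had 1099 counts in NC against 1405 in GAS5 and 1041 in siYAP (0.47 and 0.01), whereas NDUFV1, the flavin-binding subunit, had 3303, 2870 and 3345 (-0.08 and 0.10). The most abundant by FPKM, NDUFA11, an accessory subunit of the membrane arm, had 2590, 2598 and 2992 counts (0.12 and 0.29). By counts, NDUFA9, an accessory subunit at the junction of the arms, was the lowest nuclear subunit with at least 50 NC counts in siYAP. It had 2457, 2344 and 1704 counts (0.05 and -0.44, interval in siYAP -0.51 to -0.38). The rank depends on the measure. Mean FPKM was 30.62, 37.18 and 26.26 for NDUFA9, and 282.9, 266.7 and 212.0 for ATP5H of complex V. By FPKM, ATP5H was thus further below NC in siYAP.

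The NDUFAF proteins help to assemble complex I and are not part of it. The 8 genes had a median of 0.25 in GAS5, where all 8 were above NC (50.2% of all genes), and 0.02 in siYAP. By counts, NDUFAF8 was the highest nuclear gene that passed the filter in both comparisons. It had 207.3 counts in NC, with 355.8 in GAS5 and 267.6 in siYAP (0.89, interval 0.72 to 1.07, and 0.45, interval 0.27 to 0.64). Mean FPKM in NC and siYAP was 12.92 and 16.43 for NDUFAF8, and 115.5 and 148.6 for COX5B of complex IV. By FPKM, COX5B was thus slightly further above NC in siYAP. NDUFAF7, a methyltransferase that modifies a core subunit, was the lowest in siYAP, with 253.5, 236.5 and 171 counts (0.02 and -0.48, interval in siYAP -0.68 to -0.28). NDUFAF1 and NDUFAF5 were also below NC in siYAP, at -0.39 and -0.36 (intervals -0.59 to -0.19 and -0.56 to -0.17). They had 232 and 247 counts in NC. The standard deviation over genes in siYAP was 0.32 for the factors. It was 0.16 for the nuclear accessory subunits of complex I, 0.12 for its nuclear core subunits and 0.25 for its mitochondrial-encoded subunits. The part of low counts in the spread of the factors was not tested.

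Complex II links the citric acid cycle to the respiratory chain and has no mitochondrial-encoded subunit. By counts, all 4 genes were below NC in siYAP (50% of all genes), with a median of -0.09 and values from -0.12 (SDHD) to -0.02 (SDHC). SDHA, the flavoprotein, had 7026 counts in NC against 6870 in GAS5 and 6308 in siYAP (0.09 and -0.07). In GAS5 the median was 0.13. The interval of SDHC spanned 0 in both comparisons. Mean FPKM of SDHC was 36.71 in NC, with 37.88 in GAS5 and 39.55 in siYAP, so its direction depends on the measure.

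Complex III passes electrons from ubiquinol to cytochrome c. Its 9 nuclear genes had a median of 0.25 in GAS5 and 0.06 in siYAP. CYC1, the cytochrome c1 subunit, had 6968, 7684 and 6866 counts (0.26 and 0.06), and UQCRFS1, the Rieske iron-sulphur protein, had 2642, 2960 and 2824 (0.28 and 0.18). The core proteins differed in siYAP, where UQCRC1 was at 0.25 (7764, 7264 and 8712 counts) and UQCRC2 at -0.17 (3496, 3310 and 2924). CYCS had 2890, 3286 and 2586 counts (0.30 and -0.07).

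Complex IV, cytochrome c oxidase, reduces oxygen. Its 14 nuclear genes had the highest median in siYAP of any complex, 0.14, and the same median in GAS5. COX5B, a zinc-binding subunit, had 2278 counts in NC, with 2448 in GAS5 and 2836 in siYAP (0.22 and 0.40, interval in siYAP 0.35 to 0.46), and was the highest nuclear subunit in siYAP. COX7A2L, which takes part in joining complexes III and IV, had 1148, 1048 and 1384 (-0.01 and 0.35). These 2 genes were on the other side of NC in siYAP from MT-CO1, MT-CO2 and MT-CO3, the catalytic core of the same complex.

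Several complex IV subunits have tissue-specific forms. COX4I1 had 6139, 6396 and 5964 counts while COX4I2 had 0, 1.5 and 1, and COX6A1 had 6127, 5946 and 6510 while COX6A2, the heart and muscle form, had 0 in every group. COX7A2 had 2457, 2689 and 2840 counts while COX7A1, also a muscle form, had 0. COX7B had 959.5, 1263 and 956 while COX7B2 had 0, and COX8A had 4655, 4603 and 4939 while COX8C had 0, 0 and 0.5. In these 5 pairs the widely expressed form held nearly all of the counts in every group. COX6B1 had 2573, 3173 and 2612 counts (0.42 and 0.11), and its testis form COX6B2 had 47.5, 37 and 17.5 (-0.23 and -1.27, interval in siYAP -1.91 to -0.80). NDUFA4, now counted with complex IV, had 1666, 1844 and 1884 counts (0.26 in both), and its hypoxia-inducible relative NDUFA4L2 had 40, 12.5 and 40 (-1.43, interval -2.20 to -0.92, and 0.08). Among nuclear genes that passed the filter, only COX6B2 and NDUFA4L2 were past 2-fold, and both had fewer than 50 NC counts. Of all genes, 0.889% were 2-fold or more lower in GAS5 and 1.22% in siYAP.

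Complex V, the ATP synthase, turns the proton gradient into ATP. Its 17 nuclear genes had a median of 0.21 in GAS5 and of 0 in siYAP. The 5 genes of the catalytic head had medians of 0.17 and -0.01, and ATP5B, the most abundant, had 28739, 29797 and 26886 counts (0.17 and -0.01). A trio of genes encodes the same mature c subunit of the rotating membrane ring. ATP5G1 had 905.5 counts in NC against 1363 in GAS5 and 939.5 in siYAP (0.71, interval 0.62 to 0.79, and 0.14), ATP5G2 had 3736, 3980 and 4420 (0.21 and 0.33) and ATP5G3 had 2509, 3214 and 2583 (0.47 and 0.13). In all 3 the siYAP value was above NC, and ATP5G1 and ATP5G3 were highest in GAS5. The stalk subunit gene ATP5H was lower in siYAP, with 4726, 4188 and 3426 counts (-0.06 and -0.38). By counts, the lowest nuclear gene with at least 50 NC counts in GAS5 was ATP5S, with 123, 101.5 and 93.5 (-0.16, interval -0.43 to 0.11). Its mean FPKM was 0.715, 0.755 and 0.84, with NC lowest, so its direction depends on the measure.

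The other 10 genes were too low to pass the filter. They were COX4I2, COX6A2, COX7A1, COX7B2 and COX8C, given above, with ATP5EP2 (3.5, 5 and 8 counts), ATP5L2 (0.5, 0.5 and 1), ATP5SL (1.4, 0 and 0), UQCRHL (1, 3.5 and 0) and the read-through NDUFC2-KCTD14 (0.6, 11.9 and 4.1). Read-through genes such as ATP5J2-PTCD1 and copies such as ATP5EP2 and UQCRHL share sequence with their parent genes, so the split of counts between them is uncertain. The same holds for mitochondrial genes and their copies in nuclear DNA.

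Counts summed by gene hid differences among single transcripts. Of the 430 transcripts, 190 had at least 50 counts in a group, and 21 of these, from 17 genes, differed by 2-fold or more in a comparison. That was 11.1% of the 190, where 20.8% of all 29217 transcripts with such counts did. For 16 of the 17 genes the gene sums had a log2 fold change under 0.5 in size in GAS5 and in siYAP. The highest NC count among the 21 transcripts was 224. Transcript ENST00000552959 of ATP5B had 57.3 counts in NC, with 249 in GAS5 and 41.2 in siYAP. Its NC count was 0.199% of the ATP5B counts in that group. The estimated split of reads between overlapping transcripts has an error that the tables do not give. In NDUFA9 the main transcripts themselves differed, though neither passed 2-fold. ENST00000266544 had 1512, 1170 and 852 counts (-0.25 and -0.74), and an assembled transcript had 945, 1174 and 852 (0.43 and -0.06). They held 61.5% and 38.5% of the NDUFA9 counts in NC.

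Transcript length moved with the fold changes over all genes. Genes whose main transcript was under 700 bases had medians of 0.11 in GAS5 and 0.14 in siYAP, those of 700 to 999 bases 0.14 and 0.10, and those of 4000 bases or more -0.08 in both. Nuclear oxidative phosphorylation genes with main transcripts under 1000 bases (45 genes) had medians of 0.20 and 0.13, and those of 1000 bases or more (38 genes) 0.15 and 0.02. Genes whose main transcript had no known length, such as CYC1 and COX6B1, are in neither class. Of all genes under 700 bases, 68.5% were above NC in GAS5 and 70.6% in siYAP, and of those of 700 to 999 bases 73.6% and 63.6%. The shares were 95.6% and 77.8% for the shorter nuclear oxidative phosphorylation genes, and 76.3% and 52.6% for the longer ones. Against all genes of such lengths, the shorter nuclear genes were at 0.13 in siYAP, between 0.10 and 0.14, and at 0.20 in GAS5, above 0.11 and 0.14. The part of length in the nuclear medians was not tested. The mitochondrial genes were of 207 to 1812 bases, and their part in any relation with length was not tested.

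Genes of related mitochondrial functions, listed by function, were compared as a description. The 78 mitochondrial ribosomal protein genes, all nuclear-encoded, had medians of 0.24 in GAS5 and 0.03 in siYAP, near those of the nuclear oxidative phosphorylation genes. Cytosolic ribosomal protein genes (83 that passed the filter) had the reverse order, 0.05 and 0.24. Citric acid cycle genes (18) had medians of 0.10 and -0.05, with 14 above NC in GAS5 (50.2% of all genes) and 12 below it in siYAP (50%). They ranged in siYAP from -0.39 for IDH3A, a subunit of isocitrate dehydrogenase (2053, 2084 and 1477 counts), to 0.35 for OGDH of the oxoglutarate dehydrogenase complex (4571, 4400 and 5499), and in GAS5 from -0.13 (SUCLG2) to 0.24 (FH). A list of 48 assembly factors holds NDUFAF1 to NDUFAF7, which are also counted among the nuclear oxidative phosphorylation genes, but not NDUFAF8. It had medians of 0.12 and -0.07, with 40 above NC in GAS5 (50.2% of all genes) and 29 below it in siYAP (50% of all genes). COX20 (-0.30) and UQCC3 (0.56) marked the ends of that list among genes with at least 50 NC counts in GAS5, and NDUFAF7 and SDHAF1 (0.52) in siYAP.

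**Figure D4:**
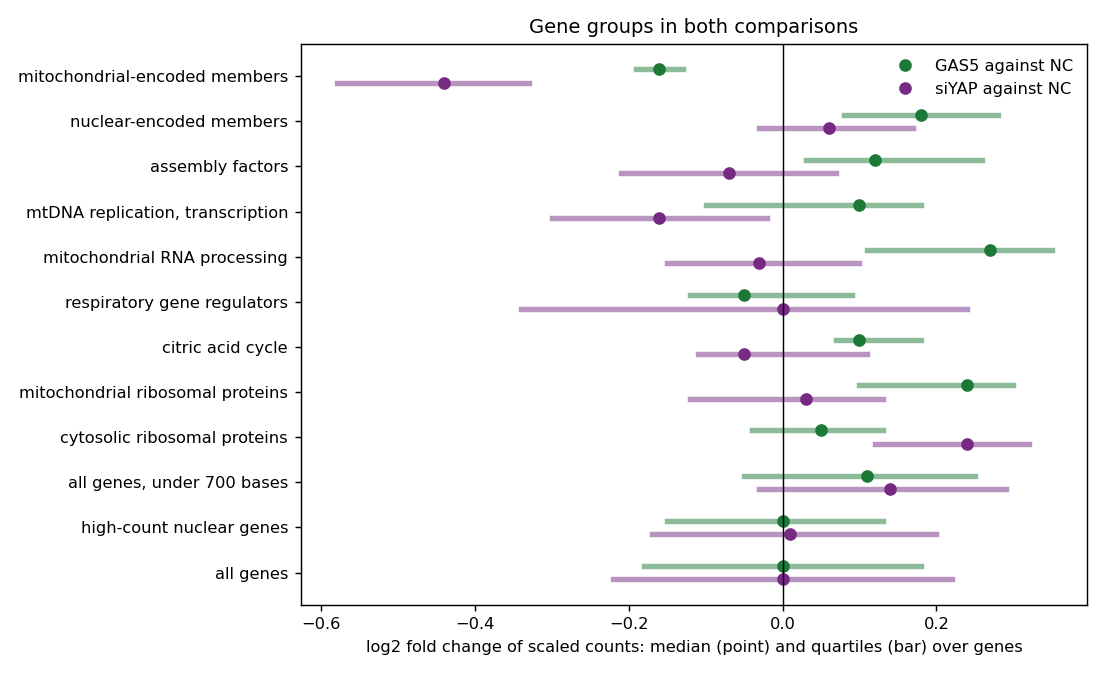
Median (point) and quartiles (bar) over genes of the log2 fold change of scaled counts against NC, for the oxidative phosphorylation genes of each genome and comparison groups of genes. The assembly factors share NDUFAF1 to NDUFAF7 with the nuclear-encoded genes. The mitochondrial-encoded genes have medians of -0.16 in GAS5 and -0.44 in siYAP, below the median of every other group shown.

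The mitochondrial genome has its own polymerases and RNA-processing enzymes, all made from nuclear genes. Of 16 genes for its replication and transcription, 13 were below NC in siYAP (median -0.16), where 50% of all genes were. Lower by 1.5-fold or more were 2 of the 16, where 5.63% of all genes were. MTERF2, a mitochondrial transcription termination factor family member, had 154 counts in NC against 114 in GAS5 and 82.5 in siYAP (-0.31 and -0.80), and MGME1, an exonuclease of mitochondrial DNA replication, had 1041, 981.5 and 615 (0.03 and -0.67). TFAM, which packages mitochondrial DNA and starts its transcription, had 1444, 1448 and 1090 (0.12 and -0.32), whereas POLRMT, the mitochondrial RNA polymerase, had 3398, 4286 and 3734 (0.45 and 0.22). In GAS5, 11 of the 16 were above NC (50.2% of all genes), with a median of 0.10, and PRIMPOL was the lowest at -0.32.

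For 20 genes of mitochondrial RNA processing and stability, the medians were 0.27 in GAS5 and -0.03 in siYAP. PNPT1, a mitochondrial exoribonuclease that degrades RNA and is induced by interferon, was the highest in GAS5, with 705.5, 1400 and 572 counts (1.10 and -0.22). It was the only gene of the list past 2-fold, and 2.2% of all genes were 2-fold or more higher in GAS5. LRPPRC, which stabilises mitochondrial mRNAs, had 10470, 8734 and 8422 (-0.14 and -0.23) and was the lowest in GAS5. FASTK, whose mitochondrial form is needed for MT-ND6 mRNA, was the highest in siYAP, with 970.5, 1066 and 1322 (0.25 and 0.53), and KIAA0391, the nuclease subunit of mitochondrial RNase P, was the lowest at -0.30. The relation of these values to those of the mitochondrial genes was not tested.

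Of 19 genes for transcriptional regulators of respiratory genes, 17 passed the filter, with medians of -0.05 in GAS5 and 0 in siYAP. GABPB2, a subunit of the ETS-family factor GABP, had 479, 373 and 275 counts (-0.24 and -0.71), and NRF1 had 811.5, 796 and 643.5 (0.09 and -0.25). PPARA, a nuclear receptor for fatty acid oxidation genes, had 773, 534.5 and 1015 (-0.41 and 0.48), being the lowest in GAS5 and the highest in siYAP. PPRC1, a growth-regulated co-activator of the PGC-1 family, had 4762, 5598 and 4490 counts (0.35 in GAS5).

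Promoters of the nuclear genes were searched for letters bound by known regulators, as a description without a test. RefSeq windows (GRCh38.p14) of 300 bases, 250 before and 50 after the start, were found for 73 of the 90 genes, and were read on both strands; none of these strings contains another. The NRF1 consensus, of which NDUFA9 below carries a copy, was in 16 of the 73 (21.9%) and in 6.28% of 27305 promoters, the ETS letters CCGGAAGT in 9 (12.3%) and 4.44%, and the YY1 letters AAGATGGC in 11 (15.1%) and 3.03%. The letters GGAATGT of TEAD factors, the DNA-binding partners of YAP, were in 0 of the 73 and in 3.48% of all promoters. The 73 genes had passed the low-count filter, while the 27305 promoters were not limited to genes expressed here, so these shares come from unlike sets. A match is a string of letters and not a bound site. The windows shown are those of the highest nuclear subunit in GAS5 (ATP5G1) and of the highest and lowest in siYAP (COX5B and NDUFA9). These ranks are by counts, among genes with at least 50 NC counts. Matches on either strand are in capitals. The genes, and the letters printed, are on the plus strand, at chr17:48892537-48892836, chr2:97645812-97646111 and chr12:4648864-4649163. COX5B holds the ETS letters at positions -37 and -5 from the start, NDUFA9 holds the NRF1 consensus at -80, read on the minus strand, and the YY1 letters at 11, and ATP5G1 holds none of the 4.
ATP5G1: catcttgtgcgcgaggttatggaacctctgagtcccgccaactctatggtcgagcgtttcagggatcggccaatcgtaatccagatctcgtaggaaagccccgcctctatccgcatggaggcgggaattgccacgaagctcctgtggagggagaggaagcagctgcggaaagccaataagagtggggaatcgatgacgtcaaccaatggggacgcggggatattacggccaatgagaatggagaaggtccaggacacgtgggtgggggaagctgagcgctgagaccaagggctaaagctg
COX5B: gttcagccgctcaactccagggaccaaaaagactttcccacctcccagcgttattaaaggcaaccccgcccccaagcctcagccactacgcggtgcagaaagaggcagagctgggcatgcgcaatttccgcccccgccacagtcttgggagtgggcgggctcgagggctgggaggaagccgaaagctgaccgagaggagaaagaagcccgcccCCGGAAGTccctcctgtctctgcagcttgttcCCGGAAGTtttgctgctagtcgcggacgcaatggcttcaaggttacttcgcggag
NDUFA9: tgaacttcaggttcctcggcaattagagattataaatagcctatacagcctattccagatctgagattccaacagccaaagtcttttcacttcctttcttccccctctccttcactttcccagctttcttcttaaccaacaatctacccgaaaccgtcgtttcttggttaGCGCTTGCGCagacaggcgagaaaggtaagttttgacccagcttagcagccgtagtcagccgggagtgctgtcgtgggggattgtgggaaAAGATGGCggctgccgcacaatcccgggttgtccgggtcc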

How the data were processed

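Strand-specific libraries from HCT116 cells (6 libraries, 2 per group) were sequenced by the authors. The submitters' processing notes name TopHat2 2.1.1; the counter and the genome build are not given in the sources used here. The deposited expected counts are estimated counts per transcript, given by the authors as 1 mean per group and not normalized. The deposited FPKM values were averaged by the authors likewise, with 0.001 standing for 0. The authors' log2 fold changes, p-values, FDR and significance columns were not used.

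Counts were summed by symbol (upper case, siYAP table), without 339 transcripts that have no symbol. They were scaled by TMM on the pair of means (edgeR 4.0.16, R 4.3.3, factors 1.09 for GAS5 and 1.06 for siYAP), filtered by filterByExpr (minimum count 10), and log2 fold changes taken with a prior count of 2. Summaries used Python 3.11.15, pandas 2.3.3, numpy 2.4.6 and scipy 1.17.1, and figures matplotlib 3.10.9. Steps were tested on simulated data. The planned edgeR quasi-likelihood test and the DESeq2 test need libraries and were not run. Called means 1.5-fold or 2-fold, with no test. FPKM ratios used a pseudocount of 0.01. Wilson intervals (95%) used the counts behind the means of 2 libraries.

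Named genes were all mitochondrial-encoded genes, the most abundant nuclear gene per complex, tissue forms, genes past 1.5-fold and the extremes with at least 50 NC counts, and the extremes of each list. Other named genes, such as NDUFS3, NDUFV1, NDUFA9, COX5B, NDUFAF1, NDUFAF5, UQCRC1, UQCRC2, UQCRFS1, COX7A2L, ATP5H, TFAM, NRF1 and MGME1, were picked once their values had been seen. Members and gene lists were chosen with earlier results of these data known. Coordinates come from GENCODE 29 (GRCh38) and promoters from RefSeq (GRCh38.p14). Alternatives were DESeq2 1.42.0 size factors, total counts, nuclear genes only for TMM, mean FPKM, no filter, Ensembl transcripts only, a prior count of 0.5 and subunits only. Long non-coding transcripts, GAS5 included, are not analysed here.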

Additional observations from a re-analysis of the deposited data

How the results depend on the processing

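Of 105 values recomputed under other settings, 96 moved by little, 9 moved further and 0 changed direction. They covered group medians, their differences, numbers past 1.5-fold, ATP5G1 and NDUFAF8 in GAS5, and MT-ATP8, MT-ND4L and MT-ND6 in siYAP. Other named genes were outside that set. By mean FPKM, MT-ND3 in siYAP went from 0.03 to -0.03, and ATP5S and SDHC were above NC in GAS5 and in siYAP. The mitochondrial median in GAS5 was -0.205 from the ratio of mean FPKM and -0.189 with scaling by total counts, against -0.163, and in siYAP -0.497 and -0.480, against -0.444. MT-ND4L in siYAP was -0.697 from mean FPKM, against -0.639. Genes past 1.5-fold numbered 7 without the low-count filter and 7 with Ensembl transcripts only in GAS5, against 3, and 9 and 7 in siYAP, against 4. The cause was not tested. Settings added after seeing the data were leaving out mitochondrial genes under 600 bases, which gave a mitochondrial median of -0.163 in GAS5 and -0.437 in siYAP, and only genes with at least 500 NC counts, which gave a nuclear median of 0.175 in GAS5 and 0.075 in siYAP. No paired analysis was possible because group means alone were at hand. Leaving out each replicate, the replicate block and the DESeq2 test were therefore not run, and no value carries a spread between cultures.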
